A study of Mus musculus with 10 samples.

Results

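The enzymes that add or remove acetyl and methyl groups on histones were followed here by family: the lysine methyltransferases (Kmt and Setd), the lysine demethylases (Kdm), the lysine acetyltransferases (Kat), the zinc-dependent deacetylases (Hdac) and the NAD-dependent sirtuins (Sirt). Members were taken by gene symbol, as any symbol made of one of these stems and a digit, leaving out the Y-linked Kdm5d. The rule found 59 of the 19782 genes in the table, with 17 Kdm, 11 Hdac, 8 Kat, 8 Kmt, 8 Setd and 7 Sirt genes. Of these, 58 were among the 12505 genes that passed the filter on low counts and were tested. The member that did not pass, Kdm4d, a demethylase gene, had 3 estimated counts over the repopulated libraries, 1 over the control libraries and 41 over the wild-type libraries.

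The RNA came from microglia, which are macrophages that reside in the brain, isolated from mouse hippocampus by sorting for CD45low CD11b+. The 5xFAD line carries human transgenes with familial Alzheimer disease mutations, driven in neurons, and forms amyloid plaques. The repopulated group (5xFAD, 3 libraries) received PLX3397, an inhibitor of the CSF1 receptor that microglia need to survive, at 290 mg/kg of chow for 1 month from 4 months of age, and then normal diet for 1 month, during which microglia returned. The control group (5xFAD, 3 libraries) and the wild-type group (4 libraries) had normal diet. The labels give neither the sex of the mice, nor the age of control and wild-type mice, nor whether libraries of a group came from separate animals, and p-values therefore reflect only how much these samples vary, in part perhaps for technical reasons.

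Acetylation of histone tails loosens chromatin and is read at active promoters and enhancers, and its level reflects a balance of acetyltransferases and deacetylases. Methylation can mark active genes (lysine 4 and lysine 36 of histone H3) or silent ones (lysine 9 and lysine 27 of histone H3, lysine 20 of histone H4), depending on the residue. In macrophages these enzymes are known to shape how inflammatory and homeostatic gene programmes are switched.

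The libraries held 18501136 to 23286814 estimated counts. The 8 microglia markers were high in every library, with summed levels of 38751 to 51841 counts per 1000000 of the scaled library (CPM) in repopulated, 45588 to 50851 in control and 44365 to 52097 in wild-type libraries. Wild-type 3 stood apart, as it correlated with its own group at 0.92 on average, where the other 3 did so at 0.944 to 0.956. It also had the most erythrocyte marker transcripts, at 281 CPM over 5 genes. It likewise had the most neuronal, astrocyte and oligodendrocyte ones, at 69.1, 555 and 138 CPM. The next highest libraries had 314 CPM of astrocyte and 88.9 CPM of oligodendrocyte markers. The 9 neuronal markers summed to 5.30 to 11.4 CPM in repopulated, 4.58 to 9.07 in control and 12 to 69.1 in wild-type libraries. The 8 cycling markers summed to 122 to 165 CPM in repopulated, 192 to 219 in control and 80.0 to 112 in wild-type libraries. Control 1, control 3 and wild-type 2 nearly lacked the transcripts of 4 Y-linked genes, at 5.12 to 16.0 CPM of unscaled totals, and reached 342 to 484 CPM in the others. In bulk RNA, fewer cells of a type and less RNA per cell cannot be told apart.

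The 3 Kmt genes that were lower in control than in wild-type microglia are shown, as methyltransferases of a single family, with 170 bases of RefSeq sequence (GRCm38.p6), 5′ to 3′ on the gene's strand. The window runs from 250 to 81 bases before the transcript start that the RefSeq promoter table uses. Measured from the outer gene boundary given with the gene's values below, it lies 187 to 18 bases before Kmt2a, 178 to 9 before Kmt2c and 215 to 46 before Kmt5c. Capitals mark 2 motifs searched on both strands, the GC box (GGGCGG) and the CCAAT box (CCAAT), and overlapping matches run together.
Kmt2a, minus strand, chr9:44881370-44881539: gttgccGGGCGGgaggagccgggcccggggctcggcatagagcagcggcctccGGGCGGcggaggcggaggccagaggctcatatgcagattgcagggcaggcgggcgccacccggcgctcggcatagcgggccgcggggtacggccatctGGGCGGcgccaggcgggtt
Kmt2c, minus strand, chr5:25498864-25499033: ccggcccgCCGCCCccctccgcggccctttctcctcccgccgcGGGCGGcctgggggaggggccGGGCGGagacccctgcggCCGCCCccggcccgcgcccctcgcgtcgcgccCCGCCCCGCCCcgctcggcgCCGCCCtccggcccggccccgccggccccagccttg
Kmt5c, plus strand, chr7:4739877-4740046: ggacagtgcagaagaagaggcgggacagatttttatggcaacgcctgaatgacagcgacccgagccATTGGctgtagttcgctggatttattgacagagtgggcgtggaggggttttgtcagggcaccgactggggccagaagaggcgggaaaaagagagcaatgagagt
The Kmt2a window held 3 GC boxes and 22 CpG dinucleotides at 77.1% GC. The Kmt2c window held 7 GC boxes and 30 CpG at 89.4% GC. The Kmt5c window held no GC box, 1 CCAAT box and 8 CpG at 54.7% GC. The 3 windows thus differed widely in make-up. Whether the make-up of a window goes with the change in level was not tested. Over the 67 windows of the 47 members with one, 46.3% held a GC box and 34.3% a CCAAT box, against 19.5% and 23.3% of all 32851 windows. An ETS core (CCGGAAG) was in 4.48% of the member windows and 3.07% of all windows. An E-box (CACGTG) was in 2.99% of the member windows and 3.38% of all windows. The median window of a member had 58.8% GC and 10 CpG, against 51.2% and 3 over all windows. A match of letters is a description of the window and not a binding site.

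Levels per length, as TPM, a unit scaled to gene length and library total, were highest for 3 sirtuins. Averaged over the 10 libraries, Sirt7, a nucleolar deacetylase of histone H3, stood at 170 TPM and ranged from 83.6 to 250 TPM. Sirt2, the cytosolic tubulin deacetylase, followed at 136 TPM with a range of 79.7 to 164 TPM, and Sirt6, a chromatin-bound nuclear deacetylase, at 114 TPM. Ranges of Sirt7 and Sirt2 over all 3 groups overlapped, but their order differed by group. In wild-type microglia Sirt7 averaged 218 ± 28.7 TPM and Sirt2 145 ± 10.1 TPM (SD, n = 4). In control microglia they averaged 103 ± 19.1 and 107 ± 26.2 TPM, within the spread between libraries. In repopulated microglia they averaged 175 ± 23.5 and 152 ± 12.9 TPM (SD, n = 3 each). The order was not tested. TPM lacks the library scaling (TMM) of CPM, whose factors were 0.913 to 0.917 in control and 1.02 to 1.12 in wild-type libraries. TPM values of different groups are therefore not on the scale of the test. Sirt6 averaged 105 TPM in control and 127 TPM in wild-type microglia, but 111 CPM in control and 106 CPM in wild-type microglia.

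In the other families the leading gene was far below Sirt7, Sirt2 and Sirt6 but above the remaining sirtuins. Of those, Sirt3 was highest at 18.4 TPM. Hdac1 (47.5 TPM), a catalytic subunit of the Sin3, NuRD and CoREST corepressors, led the zinc-dependent deacetylases, followed by Hdac3 (23.6 TPM), the catalytic subunit of the NCoR complex. Setd3 (44.3 TPM), known as the histidine methyltransferase of actin, and Setd2 (17.7 TPM), which trimethylates H3 lysine 36, led the Setd genes. Kmt2e (40.7 TPM), a member of the MLL family without known catalytic activity, and Kmt5b (30.1 TPM), an H4 lysine 20 methyltransferase, led the Kmt genes. Kdm3a (38.7 TPM), an H3 lysine 9 demethylase, and Kdm2b (28.2 TPM), a CpG-binding demethylase of polycomb complexes, led the Kdm genes. Kat8 (34.6 TPM), the H4 lysine 16 acetyltransferase, and Kat5 (34.5 TPM), the catalytic subunit of the TIP60 complex, led the Kat genes and were level. The lowest tested member was Hdac7 at 0.436 TPM, a class IIa deacetylase gene, and Kdm4a, a demethylase of H3 lysines 9 and 36, followed at 1.46 TPM.

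**Figure D1:**
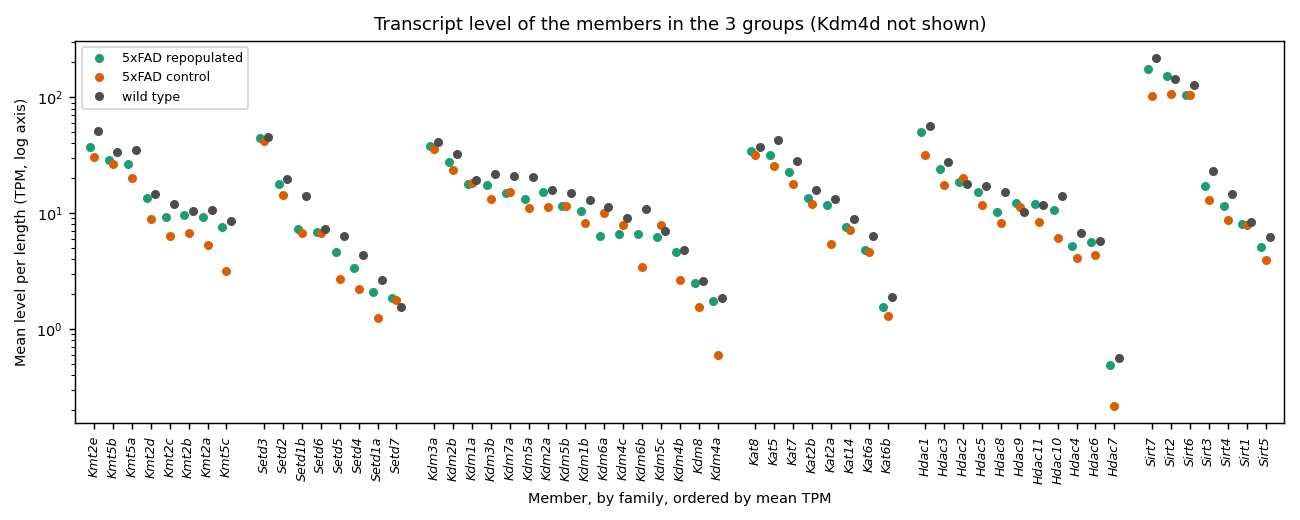
Mean level per length (TPM, log axis) of 58 members in repopulated (3 libraries), control (3) and wild-type (4) microglia, by family and ordered within it. Points are group means without error bars. Sirt7, Sirt2 and Sirt6 stand above the other members in each group. Hdac7 is lowest in each group, and Kdm4a is next lowest in control microglia only.

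The first comparison asked how these genes differed between 5xFAD and wild-type microglia on normal diet. Control microglia had fewer transcripts of 9 members, Kmt2a, Kmt2c, Kmt5c, Setd5, Kdm5a, Kdm6b, Hdac1, Hdac10 and Sirt7, and more of 0 members, at an adjusted p under 0.05 in edgeR's quasi-likelihood test. The 9 are 15.5% of the 58 tested, against 8.04% of all genes tested called lower. The 0 called higher stand against 10.1% of all genes. Fold changes ran from 1.41-fold lower for Hdac1 to 2.5-fold lower for Kdm6b. At an unadjusted p under 0.05, edgeR had 19 members lower and 1, Hdac2, higher, and the share over all genes is not given here. DESeq2 called 13 members lower and 0 higher, against 1199 lower and 1512 higher of all 12505 genes. By limma-voom 7 members were lower and 0 higher, against 906 lower and 1311 higher of all 12505 genes. In 13 members (22.4%) every control library was below every wild-type library, against 12.6% of all genes, and in 1 (1.72%), Setd7, every control library was above, against 14.1% of all genes. The median log2 fold change was -0.30 over the members and -0.06 over all genes, with 44 of 58 members (75.9%) and 54.3% of all genes below 0.

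The count of 9 moved with single libraries. It was 17 without wild-type 3, the library that stood apart, 5 without wild-type 4, and 4 without control 1 or without control 2. The count of all genes called lower moved the same way. It was 1005 in the main fit and 1396 without wild-type 3. Without wild-type 4, control 1 or control 2 it was 669, 481 and 560. Not all calls of members were lower when a single library was left out. Without wild-type 1, 5 members were called lower and 1, Hdac9, higher. Without wild-type 2, 10 were called lower and 2, Hdac2 and Kdm5c, higher. Kdm5a, Kdm6b, Setd5 and Sirt7 were called in all 10 fits that left out a library. Without the 3 libraries near absent in Y-linked transcripts, control 2 alone stood for the controls and was assumed to vary like the other groups. That fit called Sirt7 lower and Hdac2 higher. Fold changes of genes moved with GC content in this comparison, with a rank correlation of -0.261 over 12302 genes, which share libraries and so are not independent. With a correction for GC and transcript length the members' median was -0.12 and 8 were called. That fit lost Hdac10, Kmt2a and Kmt2c and gained Hdac8 and Kdm1b, both lower. In this comparison 2 of 3 control and 1 of 4 wild-type libraries nearly lacked Y-linked transcripts. With Y-linked status as a term 8 members were called, all lower. Hdac10, Kmt2a, Kmt2c and Kmt5c were then lost, and Kdm1b, Kmt5a and Setd1b were gained.

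**Figure D2:**
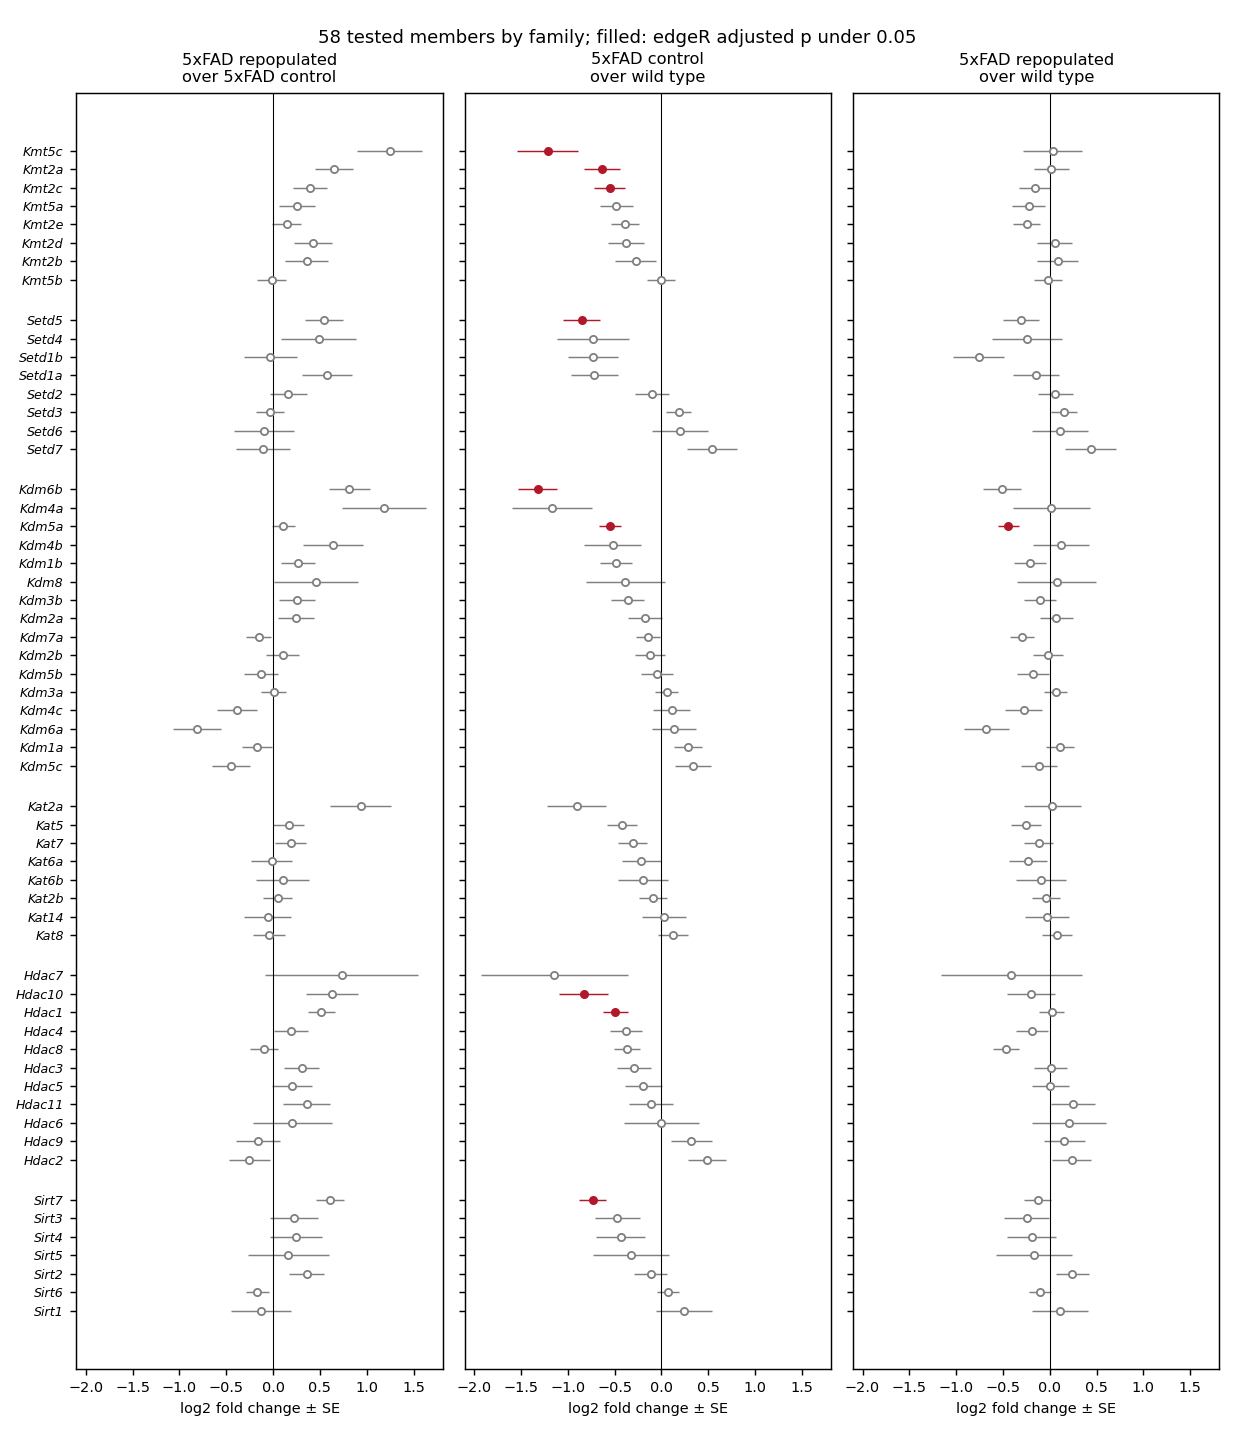
Log2 fold change ± SE (edgeR) of the 58 tested members, by family, for repopulated over control, control over wild type and repopulated over wild type microglia. Filled red points passed an adjusted p of 0.05, which were 0, 9 and 1 members, and in the middle panel 44 of 58 points lie below 0.

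Among the lysine methyltransferases, 3 of 8 Kmt genes fell in control microglia, and all 8 had a log2 fold change below 0, with a median of -0.44. Kmt2a, the MLL1 methyltransferase of H3 lysine 4 at promoters (Entrez 214162, chromosome 9, 44803355 to 44881352 in GRCm38.p6), had 56.4, 67.0 and 63.9 CPM in control and 120.4, 84.4, 80.7 and 102 CPM in wild-type libraries. The lowest wild-type library stood above the highest control library. It fell 1.55-fold (log2 fold change -0.63, SE 0.19, edgeR adjusted p = 0.032). Kmt2c, the MLL3 methyltransferase of enhancers (Entrez 231051, chromosome 5, 25271795 to 25498855), had 74.7, 72.8 and 80.6 CPM in control and 140.4, 96.4, 82.3 and 127 CPM in wild-type libraries. The groups did not overlap, but wild-type 3 came within a few CPM of control 3. It fell 1.47-fold (log2 fold change -0.55, SE 0.17, edgeR adjusted p = 0.0342).

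Kmt5c, which places trimethylation on H4 lysine 20 in heterochromatin (Entrez 232811, chromosome 7, 4740092 to 4747514), had 5.22, 4.03 and 5.52 CPM in control and 16.9, 9.83, 5.83 and 13.2 CPM in wild-type libraries. Control libraries were close together at a low level, and wild-type libraries were spread, with wild-type 3 near the controls. It fell 2.32-fold (log2 fold change -1.22, SE 0.33, edgeR adjusted p = 0.0195). The adjusted p of Kmt5a, the H4 lysine 20 monomethylase, was 0.0746 in edgeR, with 34.9 ± 4.80 CPM in control and 48.7 ± 10.1 CPM in wild-type microglia (SD, n = 3 and 4). Kmt5b, also an H4 lysine 20 methyltransferase, was at 75.7 ± 9.34 CPM in control and 75.9 ± 11.4 CPM in wild-type microglia. Of these 3 enzymes of H4 lysine 20, Kmt5c alone passed the test. Kmt2a and Kmt2c, but not Kmt5c, lost their calls with the GC and length correction. With Y-linked status as a term Kmt2a, Kmt2c and Kmt5c all lost theirs, and Kmt5a was called lower. Over 21 alternatives Kmt2a was called in 12, Kmt2c in 9 and Kmt5c in 14. The family had 0 calls without control 1, without control 2 or without wild-type 1, and 6 without wild-type 3.

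Of the 8 Setd genes 1 fell. Setd5, a SET-domain chromatin protein needed in brain development (Entrez 72895, chromosome 6, 113077262 to 113153432), had 15.5, 14.7 and 13.3 CPM in control and 28.9, 20.9, 22.8 and 32.1 CPM in wild-type libraries. Every control library was well below every wild-type one. It fell 1.80-fold (log2 fold change -0.85, SE 0.20, edgeR adjusted p = 0.00813). Setd1a and Setd1b, the catalytic subunits of the SET1 complexes for H3 lysine 4, did not pass, with edgeR adjusted p-values of 0.0614 and 0.0754. Setd1a averaged 5.17 ± 0.772 CPM in control and 8.49 ± 1.72 CPM in wild-type microglia, and Setd1b 41.3 ± 10.01 and 68.6 ± 26.4 CPM in control and wild-type microglia (SD, n = 3 and 4). Counting Kmt2a to Kmt2d, Setd1a, Setd1b and Setd7 as H3 lysine 4 methyltransferases, 2 of 7 fell and 6 of 7 were below 0, with a median of -0.55. The exception in sign was Setd7, a monomethylase with many non-histone targets, at 9.51, 9.02 and 8.86 CPM in control and 7.04, 6.46, 3.74 and 7.82 CPM in wild-type libraries. Its groups did not overlap, but it did not pass the test (edgeR adjusted p = 0.182).

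Of the 16 Kdm genes tested 2 fell. Kdm6b, the JMJD3 demethylase of H3 lysine 27 that inflammatory stimuli are known to induce in macrophages (Entrez 216850, chromosome 11, 69398508 to 69420367), had 14.7, 18.3 and 15.1 CPM in control and 41.1, 42.4, 26.4 and 50.6 CPM in wild-type libraries. Control libraries lay far below wild-type ones, and wild-type 3 was the lowest of its group. It fell 2.5-fold (log2 fold change -1.32, SE 0.21, edgeR adjusted p = 0.000552), the largest log2 change among the 9.

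Kdm5a, a demethylase of trimethylated H3 lysine 4 (Entrez 214899, chromosome 6, 120364099 to 120444574), had 87.0, 82.9 and 89.3 CPM in control and 139, 121, 127 and 119 CPM in wild-type libraries. Both groups were tight and far apart. It fell 1.46-fold (log2 fold change -0.55, SE 0.12, edgeR adjusted p = 0.00473). Kdm1b, an amine oxidase that demethylates H3 lysine 4, averaged 19.96 ± 3.55 CPM in control and 27.9 ± 3.87 CPM in wild-type microglia (SD, n = 3 and 4) and did not pass (edgeR adjusted p = 0.0648). The family's median log2 fold change, -0.16, was the closest to 0 among the 6 families, and 5 of 16 genes were above 0. Writers and erasers of one mark were both among the calls, as Kmt2a and Kmt2c add and Kdm5a removes methyl groups at H3 lysine 4.

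No Kat gene passed the test, with a family median of -0.21 and 6 of 8 below 0. At an unadjusted p under 0.05 edgeR had Kat2a and Kat5 lower, and DESeq2 called Kat2a. Kat2a, the GCN5 acetyltransferase of the SAGA complex, had 10.4, 7.96 and 15.2 CPM in control and 27.5, 15.8, 13.5 and 27.1 CPM in wild-type libraries. The groups overlapped at control 3 and wild-type 3, and its adjusted p was 0.0592 in edgeR, the lowest of the members that were not called. Kat5 averaged 31.5 ± 4.41 CPM in control and 42.2 ± 2.95 CPM in wild-type microglia (SD, n = 3 and 4), with groups that did not overlap and an edgeR adjusted p of 0.0839. Kat7, the HBO1 acetyltransferase, averaged 41.3 ± 9.03 CPM in control and 51.1 ± 5.04 CPM in wild-type microglia and did not pass either (edgeR adjusted p = 0.193).

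Among the deacetylases, 2 of 11 Hdac genes and 1 of 7 Sirt genes fell. Hdac1 (Entrez 433759, chromosome 4, 129516104 to 129542646) had 38.0, 36.8 and 44.9 CPM in control and 54.2, 60.7, 51.3 and 58.5 CPM in wild-type libraries, with no overlap. It fell 1.41-fold (log2 fold change -0.49, SE 0.14, edgeR adjusted p = 0.0206). Its close paralog Hdac2, which joins the same corepressors, had 21.6, 30.4 and 21.2 CPM in control and 14.4, 22.7, 13.995 and 18.5 CPM in wild-type libraries. Those groups overlapped, and Hdac2, on the other side of 0 at a log2 fold change of 0.49, did not pass (edgeR adjusted p = 0.116). The difference between the paralogs' fold changes was not tested. RefSeq lists an Hdac1 pseudogene, and estimated counts could split reads between the copies.

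Hdac10, a deacetylase of polyamines (Entrez 170787, chromosome 15, 89123303 to 89128700), had 7.88, 8.67 and 12.3 CPM in control and 22.8, 17.3, 10.98 and 17.3 CPM in wild-type libraries. The groups overlapped, since wild-type 3 was below control 3. It fell 1.78-fold (log2 fold change -0.83, SE 0.26, edgeR adjusted p = 0.0404) and was called in 9 of 21 alternatives. Hdac8, a class I deacetylase of cohesin, was at 47.0 ± 6.65 CPM in control and 60.7 ± 5.43 CPM in wild-type microglia (SD, n = 3 and 4), and did not pass (edgeR adjusted p = 0.0836).

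Sirt7 (Entrez 209011, chromosome 11, 120618371 to 120625014) had 113, 87.6 and 133 CPM in control and 195, 182, 171 and 191 CPM in wild-type libraries. All control libraries were far below the wild-type ones. It fell 1.66-fold (log2 fold change -0.73, SE 0.14, edgeR adjusted p = 0.00284) and was the 1 member called in each of 21 alternatives, at adjusted p-values of 3.24e-05 to 0.017. The other nuclear sirtuins were not called. Sirt6 had 110.0, 117 and 106 CPM in control and 102, 105, 106 and 111 CPM in wild-type libraries, which overlap. Sirt1, a deacetylase of histones and transcription factors, averaged 20.5 ± 4.81 CPM in control and 17.4 ± 7.48 CPM in wild-type microglia. The mitochondrial Sirt3, Sirt4 and Sirt5 had log2 fold changes of -0.47, -0.44 and -0.33, and none passed. Reads of called members may be shared with overlapping genes, because no strand is stated: Ccdc77 overlaps Kdm5a, and predicted or small RNA genes overlap Hdac10, Kdm6b, Kmt2a, Kmt2c and Sirt7.

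**Figure D3:**
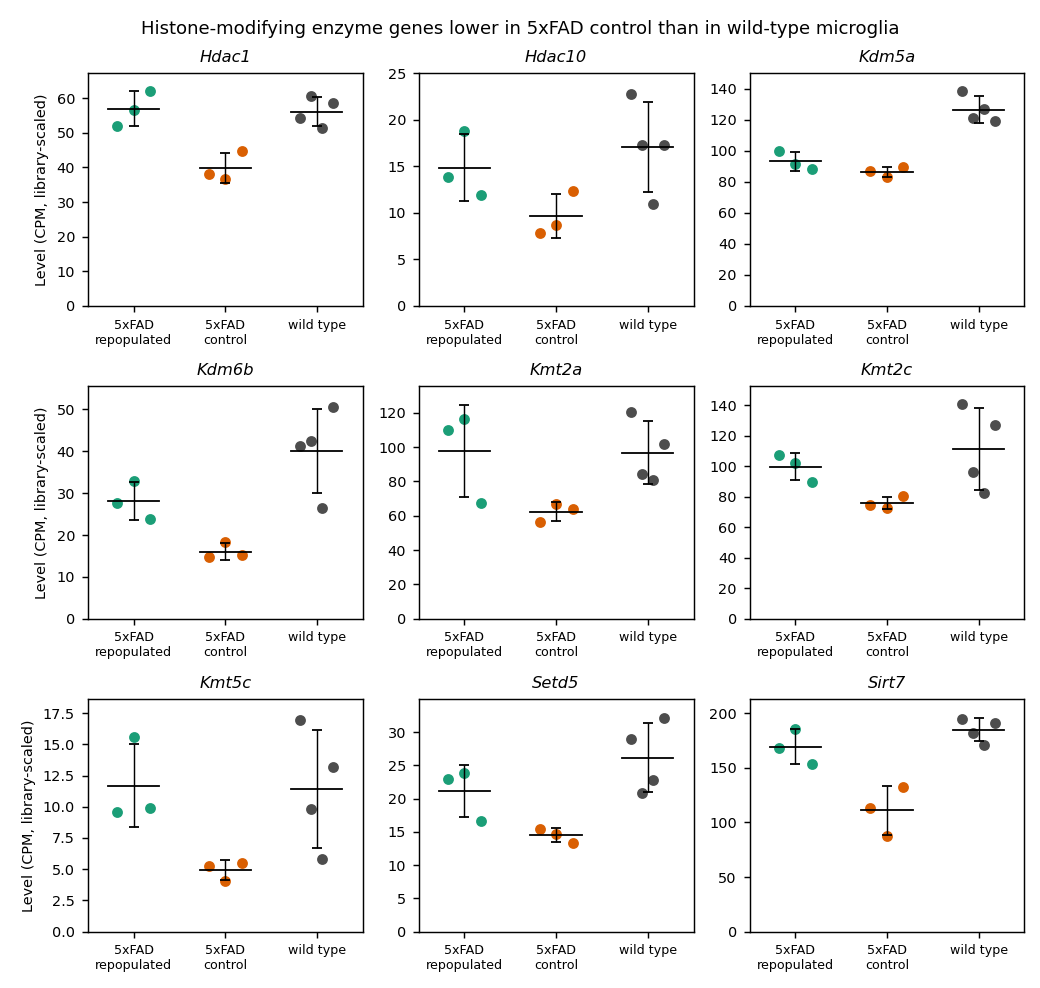
Level (library-scaled CPM, axes from 0) of the 9 members lower in control than in wild-type microglia, in repopulated (3 libraries), control (3) and wild-type (4) microglia. Points are libraries and bars are mean ± SD. Control points lie below all wild-type points in 8 panels, and overlap them for Hdac10.

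The second comparison asked what repopulation did within 5xFAD mice. Under edgeR no member passed the adjusted threshold in repopulated against control microglia, with 0 higher and 0 lower, where 0.352% of all genes were called higher and 0.216% lower. At an unadjusted p under 0.05, 11 members were higher and 2 lower in edgeR, with the share over all genes not given here. By limma-voom 0 members were called, against 67 higher and 58 lower of all 12505 genes. DESeq2 called 5, with Hdac1, Kdm6b, Kmt2a and Sirt7 higher and Kdm6a lower. Of all 12505 genes DESeq2 called 329 higher and 369 lower. In 11 members (19.0%) every repopulated library was above every control library, against 15.0% of all genes. In 2 (3.45%), Kdm5c and Kdm6a, every repopulated library was below, against 15.7% of all genes. The median log2 fold change was 0.19 over the members and -0.00 over all genes, with 39 of 58 members (67.2%) and 49.9% of all genes above 0.

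In this comparison, fold changes moved with GC content at a rank correlation of 0.434 over 12302 genes, and with the GC and length correction the members' median was 0.08. Leaving out wild-type 3, from which the spread is also estimated, gave 3 calls (Kdm6b, Kmt5c and Sirt7, all higher). Leaving out control 3 gave 1, Sirt7. Over all genes these fits called 206 and 114 higher, against 44 in the main fit. Cycling markers were lower in all repopulated than in all control libraries, with the values given above. A list of 4 egg transcripts (Omt2a, Omt2b, Tcl1 and Btg4) was made because an earlier analysis had shown them. Their separation was thus known beforehand and is no independent evidence. They summed to 14.7 to 29.6 CPM in repopulated libraries, against 0 in all control libraries. The 6 oligodendrocyte markers summed to 77.2 to 82.6 CPM in repopulated and 56.7 to 68.5 CPM in control libraries, also without overlap. The 6 neutrophil markers summed to 64.4 to 152 CPM in repopulated libraries and to 16.9, 302 and 22.3 CPM in control 1, 2 and 3. The part of these markers in the result was not tested.

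The 9 members that were lower in control than in wild-type microglia had log2 fold changes above 0 in repopulated over control microglia. Both comparisons hold the same control libraries, so the signs are not independent. Kmt5c had 9.62, 15.6 and 9.90 CPM in repopulated libraries against the 4.03 to 5.52 CPM in control libraries, with no overlap (log2 fold change 1.25, SE 0.35, edgeR adjusted p = 0.0954). Kdm6b had 27.7, 33.0 and 23.9 CPM in repopulated libraries against 14.7 to 18.3 CPM in control libraries, also with no overlap (log2 fold change 0.81, SE 0.22, edgeR adjusted p = 0.087). Sirt7 had 168, 186 and 154 CPM in repopulated libraries, all above the 87.6 to 133 CPM in control libraries (log2 fold change 0.61, SE 0.15, edgeR adjusted p = 0.0782). These 3 separated cleanly by library but stayed above the adjusted threshold of 0.05. With the GC and length correction Kmt5c had a log2 fold change of 0.82, Kdm6b 0.39 and Sirt7 0.31 (edgeR adjusted p = 0.144, 0.369 and 0.231).

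Hdac1, at 52.0, 56.7 and 62.1 CPM in repopulated libraries, was above the 36.8 to 44.9 CPM in control libraries (log2 fold change 0.51, SE 0.14, edgeR adjusted p = 0.0987). Kmt2a, at 109.7, 116 and 67.3 CPM in repopulated libraries, had 2 libraries high and 1 just above the highest control, 67.0 CPM (edgeR log2 fold change 0.65, SE 0.20, adjusted p = 0.125). Setd5, at 23.0, 23.8 and 16.6 CPM in repopulated libraries, had the same shape against 13.3 to 15.5 CPM in control libraries. Repopulated 3 was the lowest of its group for Kmt2a, Kmt2c, Setd5, Kdm6b, Kdm5a, Hdac10 and Sirt7, but not for Hdac1 or Kmt5c. Kmt2c, at 107, 102 and 89.7 CPM in repopulated libraries, stood above 72.8 to 80.6 CPM in control libraries (edgeR adjusted p = 0.257). Hdac10, at 13.8, 18.8 and 11.9 CPM in repopulated libraries, overlapped the 7.88 to 12.3 CPM in control libraries.

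Kdm5a had 100.03, 91.2 and 88.2 CPM in repopulated libraries against 82.9 to 89.3 CPM in control libraries, which overlap, as they do for Hdac10, with a log2 fold change of 0.11 (SE 0.12, edgeR adjusted p = 0.684). Whether its fold change differs from those of the other 8 was not tested.

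Of the members not called in any comparison, Kat2a had 21.8, 28.6 and 13.8 CPM in repopulated and 10.4, 7.96 and 15.2 CPM in control libraries, overlapping at 1 library (log2 fold change 0.93, SE 0.33, edgeR adjusted p = 0.162). Kdm4a had 3.19, 4.03 and 4.55 CPM in repopulated and 1.63, 0.806 and 2.73 CPM in control libraries, a low level but without overlap (log2 fold change 1.18, SE 0.45, edgeR adjusted p = 0.184). Setd1a averaged 7.69 ± 1.03 CPM in repopulated and 5.17 ± 0.772 CPM in control microglia, and Sirt2 155 ± 18.3 and 121 ± 33.5 CPM in repopulated and control microglia (SD, n = 3 each). Hdac3, Kat5, Kat7, Setd4 and Sirt6 were among the 3 lowest p-values of their families and had edgeR adjusted p-values of 0.41 to 0.647. In most members repopulated and control libraries overlapped.

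The third comparison asked how repopulated 5xFAD microglia stood against wild type. Kdm5a was the 1 member called lower (1.72%) in edgeR, against 0.784% of all genes, and 0 members were called higher, against 3.4% of all genes. At an unadjusted p under 0.05 edgeR had 6 lower and 0 higher, and the share over all genes is not given here. DESeq2 called 2 members lower, Hdac8 and Kdm5a, and 0 higher, against 207 lower and 573 higher of all 12505 genes. In 4 members (6.9%) every repopulated library was below every wild-type library, against 6.82% of all genes, and in 0 every one was above, against 9.13% of all genes. The median log2 fold change was -0.07 over the members and -0.02 over all genes. The share without overlap was near that of all genes in the lower direction.

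Kdm5a had 100.03, 91.2 and 88.2 CPM in repopulated and 139, 121, 127 and 119 CPM in wild-type libraries. The highest repopulated library was below the lowest wild-type library. It was 1.36-fold lower (log2 fold change -0.44, SE 0.12, edgeR adjusted p = 0.0447). The call was held in 5 of 21 alternatives, with adjusted p-values of 0.00557 to 0.203, and in 1 of the 10 fits that left out a library, that without control 2. With control microglia at 86.4 ± 3.21 CPM, Kdm5a was lower in both 5xFAD groups than in wild type.

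The other members called lower in control microglia were not called here. Kdm6b averaged 28.2 ± 4.56 CPM in repopulated and 40.1 ± 10.1 CPM in wild-type microglia (SD, n = 3 and 4), with overlapping libraries (log2 fold change -0.51, SE 0.20, edgeR adjusted p = 0.23). Hdac1, Kmt2a and Kmt5c had log2 fold changes of 0.02, 0.02 and 0.03, with standard errors of 0.13, 0.19 and 0.31, and Sirt7 had -0.13 with a standard error of 0.14. Their repopulated and wild-type libraries overlapped. Hdac8 had 48.0, 41.6 and 42.0 CPM in repopulated and 62.4, 60.6, 66.5 and 53.5 CPM in wild-type libraries without overlap (log2 fold change -0.47, SE 0.14, edgeR adjusted p = 0.0883). Kdm7a, a demethylase of H3 lysines 9 and 27, had 93.4, 90.9 and 90.03 CPM in repopulated and 93.8, 118, 117 and 120.2 CPM in wild-type libraries. Those groups met within 1 CPM at wild-type 1, which stood far below the other wild-type libraries, and Kdm7a did not pass (edgeR adjusted p = 0.28). Kdm6a had a log2 fold change of -0.68 (SE 0.24, edgeR adjusted p = 0.158). Setd1b averaged 40.5 ± 10.4 CPM in repopulated and 68.6 ± 26.4 CPM in wild-type microglia, with a wild-type library at 104 CPM (edgeR adjusted p = 0.163). Hdac2, Hdac4, Kat5, Kat6a, Kat7, Kmt2e, Kmt5a, Kmt2c, Setd7, Setd5, Sirt2, Sirt3 and Sirt7, the others with the lowest p-values of their families, had edgeR adjusted p-values of 0.489 to 0.817.

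Summed over a family, levels were lowest in control microglia for all 6 families. The 8 Kmt genes summed to 703 ± 127 CPM in repopulated, 563 ± 12.3 CPM in control and 746 ± 115 CPM in wild-type microglia (SD, n = 3, 3 and 4). The 7 Sirt genes summed to 469 ± 22, 387 ± 47.3 and 471 ± 16.8 CPM in repopulated, control and wild-type microglia. The 17 Kdm genes summed to 682 ± 57.8 CPM in repopulated, 679 ± 25.3 CPM in control and 776 ± 46.8 CPM in wild-type microglia. The Kmt sum of repopulated 3, 559 CPM, was at the level of the control libraries, 549 to 572 CPM, and repopulated 1 and 2 had 748 and 801 CPM. Per length, the Kmt genes summed to 142 ± 26.9 TPM in repopulated, 107 ± 4.11 TPM in control and 176 ± 37.6 TPM in wild-type microglia. The Sirt genes summed to 473 ± 40.2 TPM in repopulated, 348 ± 36.9 TPM in control and 543 ± 36.1 TPM in wild-type microglia. All 6 family means of repopulated microglia lay between those of control and wild-type microglia, in CPM and in TPM. Because TPM lacks the library scaling of CPM, differences between groups in TPM are not on the scale of the test. These sums weigh each gene by its reads, were not tested, and lean on genes with many reads such as Kmt2d and Kmt2e.

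Of the 4 X-linked members, Kdm6a was highest in the libraries that nearly lacked Y-linked transcripts, in both groups that held such libraries. Kdm6a, the UTX demethylase of H3 lysine 27 (Entrez 22289, chromosome X, 18160862 to 18279936), had 24.1, 25.0 and 21.3 CPM in repopulated, 43.0, 31.6 and 49.1 CPM in control and 28.9, 59.2, 31.2 and 31.0 CPM in wild-type libraries. The 3 highest libraries, wild-type 2, control 3 and control 1, were those near absent in Y-linked transcripts. Kdm5c, a demethylase of H3 lysine 4 (Entrez 20591, chromosome X, 152233198 to 152279102), had 32.1, 35.5 and 31.0 CPM in repopulated, 49.5, 44.9 and 40.7 CPM in control and 31.3, 50.7, 26.9 and 33.7 CPM in wild-type libraries. Wild-type 2 was again the highest of its group, but control 2, which had Y-linked transcripts, lay between control 1 and control 3. Both genes are known to escape X inactivation in mice.

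Kdm6a in repopulated over control microglia had a log2 fold change of -0.81 (SE 0.25, edgeR adjusted p = 0.125), which ran from -0.97 to -0.28 over 21 alternatives. All 3 repopulated libraries and 1 of 3 control libraries had Y-linked transcripts, so the comparison is unequal in this respect. Among libraries with Y-linked transcripts, Kdm6a was at 21.3 to 25.0 CPM in 3 repopulated libraries, 31.6 CPM in control 2 and 28.9 to 31.2 CPM in 3 wild-type libraries. With Y-linked status as a term in the edgeR fit the Kdm6a log2 fold change was -0.28 (adjusted p = 0.497), and without the 3 libraries near absent in these transcripts it was -0.42 (adjusted p = 0.348). Kdm5c had a log2 fold change of -0.45 in repopulated over control microglia (SE 0.20, edgeR adjusted p = 0.247). Hdac6, the cytosolic tubulin deacetylase, had 13.5, 14.8 and 12.1 CPM in repopulated, 9.56, 13.9 and 11.6 CPM in control and 18.3, 11.2, 3.01 and 14.3 CPM in wild-type libraries. Neither Hdac6 nor Hdac8 was highest in the libraries near absent in Y-linked transcripts.

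**Figure D4:**
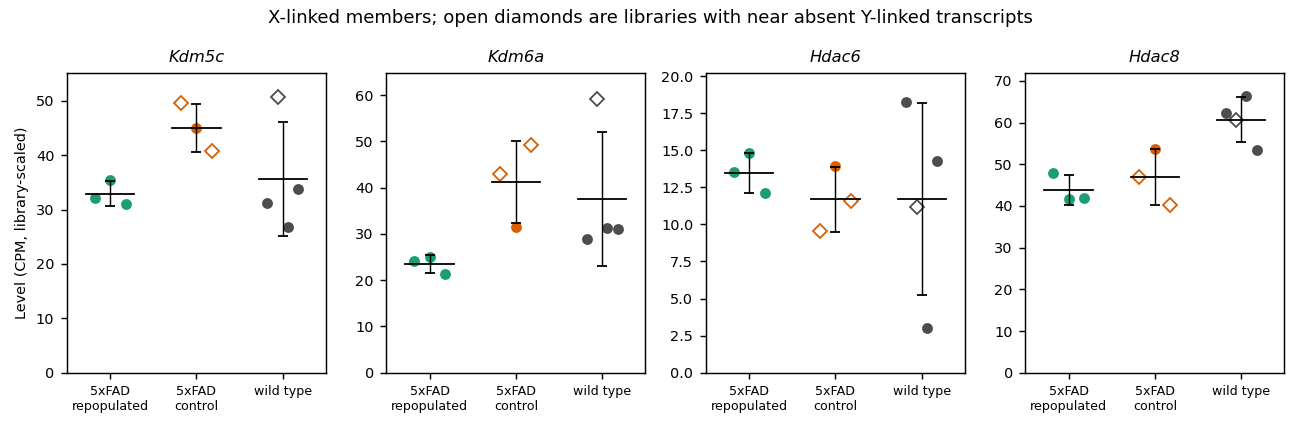
Level (library-scaled CPM, axes from 0) of the 4 X-linked members in repopulated (3 libraries), control (3) and wild-type (4) microglia, with mean ± SD. Open diamonds are the 3 libraries near absent in Y-linked transcripts, which hold the 3 highest values of Kdm6a, from 43.0 to 59.2 CPM.

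Enzymes and partners outside the symbol rule were counted by list in control against wild-type microglia with the same edgeR fit. These counts stand against 8.04% of all genes called lower and 10.1% called higher, and counts of 1 or 2 calls in a list are read as no result about the list. They also moved with the alternatives, over which other methyltransferases had 0 to 5 calls lower, acetyltransferase partners 0 to 6, deacetylase partners 0 to 3, MLL and SET1 partners 1 to 4, and the acetyl-CoA and S-adenosylmethionine list 0 to 4. The other acetyltransferases had 0 to 1 call higher, and the other demethylases and related proteins 0 to 1 higher and 0 to 2 lower. Of 27 other histone methyltransferases, 1 fell (Prmt7, an arginine methyltransferase) and 0 rose, with a median log2 fold change of -0.14. Of 11 other acetyltransferases 1 rose, Gtf3c4, a subunit of the RNA polymerase III factor TFIIIC, which had 100.5, 83.4 and 95.9 CPM in control and 47.2, 36.8, 19.7 and 41.9 CPM in wild-type libraries. Its groups were far apart, at 2.56-fold higher in control microglia (edgeR adjusted p = 0.000621). Of 10 other demethylases and related proteins, not all of them demethylases, edgeR called 0 in either direction. In edgeR 3 of them (Riox2, Riox1 and Jarid2) had an unadjusted p under 0.05.

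Among partners of the called enzymes, counts were again small. Of 14 partners in MLL and SET1 complexes, 2 fell and 1 rose. Men1, menin, which tethers Kmt2a to chromatin, had 5.32, 5.09 and 9.81 CPM in control and 19.4, 14.01, 16.1 and 13.5 CPM in wild-type libraries. It fell 2.33-fold, without overlap (log2 fold change -1.22, SE 0.27, edgeR adjusted p = 0.00678). Pagr1a, a subunit with Kmt2c and Kmt2d, fell 1.47-fold (edgeR adjusted p = 0.0167), and Psip1, the LEDGF chromatin tether of Kmt2a, rose 1.73-fold (edgeR adjusted p = 0.0291). Of 29 tested partners of HDAC corepressors, Arid4a and Brms1 of the Sin3 complex fell, and Mbd2, a methyl-CpG reader of NuRD, rose 2.09-fold (edgeR adjusted p = 0.00209). Of 36 acetyltransferase partners, Supt20 and Trrap fell and 0 rose.

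The cosubstrates of these enzymes come from metabolism. Of 11 tested genes of NAD supply and use, 1 rose and 1 fell. Nampt, the rate-limiting enzyme of NAD salvage, had 121, 108 and 97.4 CPM in control and 36.4, 55.4, 57.3 and 65.1 CPM in wild-type libraries. It rose 2.03-fold, with no overlap (edgeR adjusted p = 0.000815), while Nadsyn1, which makes NAD from precursors, fell 1.82-fold (edgeR adjusted p = 0.0213). Of 12 genes of acetyl-CoA and S-adenosylmethionine supply, Mthfd2 rose 1.65-fold and Idh2 fell 1.64-fold (edgeR adjusted p = 0.023 and 0.00087). Idh2, which makes the demethylases' cosubstrate in mitochondria, was also lower in repopulated than in wild-type microglia, 1.44-fold (edgeR adjusted p = 0.0203). Nsd1, an H3 lysine 36 methyltransferase, and Arid4a were likewise lower in repopulated than in wild-type microglia, 1.46-fold and 1.51-fold (edgeR adjusted p = 0.049 and 0.0284).

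Of 10 genes of DNA methylation, 2 fell and 1 rose in control against wild-type microglia. Tet2, which oxidises methylated cytosine, had 60.4, 58.1 and 48.0 CPM in repopulated, 87.1, 142 and 89.2 CPM in control and 60.9, 71.0, 64.9 and 49.9 CPM in wild-type libraries. Control libraries were above all others, with control 2 the highest. It rose 1.72-fold in control over wild-type microglia (edgeR adjusted p = 0.00779) and fell 1.91-fold in repopulated over control microglia (log2 fold change -0.94, SE 0.20, edgeR adjusted p = 0.0496). It was the 1 gene of all 9 lists called in repopulated against control microglia. Over the alternatives the repopulated against control comparison had 0 to 1 call in this list. Mbd1, a methyl-CpG reader, fell 1.5-fold in control against wild-type microglia (edgeR adjusted p = 0.0123). Tet1, of the same activity as Tet2, fell 2.11-fold in control against wild-type microglia (edgeR adjusted p = 0.00438), at 6.90, 6.70 and 4.76 CPM in control and 14.5, 13, 13.7 and 10.5 CPM in wild-type libraries.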

How the data were processed

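Smart-Seq RNA sequencing libraries of sorted hippocampal microglia were analysed in 3 groups. Per the submitters' processing notes, HISAT, Bowtie2 and GRCm38.p6 were used; the quantifier, strand setting and versions were not given in the sources used here. The authors deposited an estimated count, an FPKM value and a TPM value per gene and library; estimated counts were rounded (20.1% of those above 0 were not whole, tolerance 0.001), TPM gave levels per length, and the deposited FPKM values were not used. Gene positions and promoter windows are from RefSeq GRCm38.p6, which matched 19725 of 19782 gene identifiers.

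Genes were filtered with filterByExpr, scaled by TMM and fitted in 1 model of 3 groups with edgeR 4.0.16 (robust quasi-likelihood test, Benjamini-Hochberg adjusted p under 0.05 over all 12505 genes; R 4.3.3). CPM values are per 1000000 counts of the scaled library, with SD over libraries, and standard errors are the log2 fold change over the root of the F statistic. The biological coefficient of variation was 27.3%. The script was tested on simulated counts with known changes.

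Alternatives were DESeq2 size factors, upper-quartile scaling, no filter, a filter of 5 CPM in 3 libraries, the DESeq2 1.42.0 Wald test, limma-voom 3.58.1, a replicate block, a fit of the compared groups alone, each library left out, a Y-linked status term, the 3 libraries near absent in Y-linked transcripts left out, and a GC and length correction. Same-numbered libraries correlated at -0.105 to 0.0705 in their deviations, so the numbers do not pair them. No pair of libraries agreed within sampling noise.

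Genes named are the members called in any comparison, the 3 lowest p-values of each family in each comparison, the 2 highest TPM of each family, X-linked members, the untested member, and up to 4 genes per companion list. The members, lists and tests were chosen with earlier results of these data known. Counting error is small at 18501136 to 23286814 counts per library for most members, and spread between libraries limits precision.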

Additional observations from a re-analysis of the deposited data

Results flagged for a closer look

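In 5 of the 58 tested members 1 of the 4 wild-type libraries lay far from the rest by Dixon's gap test. By chance this test flags about 1 in 20 groups, and the share over all genes is not given here. The count of 5 is thus read as no result about the members. Kdm6a reached 59.2 CPM in wild-type 2, while the remaining wild-type libraries had 28.9 to 31.2 CPM. Kdm7a stood at 93.8 CPM in wild-type 1, and the rest had 117 to 120.2 CPM. Kdm3a, at 67.1 CPM, was also low in wild-type 1, where the rest had 80.2 to 81.4 CPM. Wild-type 3 was high in Hdac7, at 4.71 CPM where the rest had 0.475 to 1.12 CPM. The same library was low in Kmt2b, which encodes the MLL2 methyltransferase, at 20.6 CPM where the rest had 34.8 to 36.6 CPM.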

How the results depend on the processing

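No value turned its sign past the threshold under the 21 alternatives. For control against wild type, where 9 members were called, leaving out 1 library gave 4 to 17 calls, leaving out the 3 libraries near absent in Y-linked transcripts gave 2, and the replicate block gave 4 (Kdm5a, Kdm6b, Setd5 and Sirt7), although the replicate numbers do not pair the libraries. The other alternatives gave 7 to 13. For repopulated against control, where 0 were called, DESeq2 and the fit of the compared groups alone gave 5 each, leaving out the 3 libraries gave 1, and leaving out 1 library gave 0 to 3. For repopulated against wild type, where 1 was called, DESeq2 gave 2, leaving out 1 library gave 0 to 2, and DESeq2 size factors, the GC and length correction, the Y-linked status term, no filter, the compared groups alone, the replicate block and leaving out the 3 libraries gave 0. Counts over all genes also moved with the alternatives. For repopulated against control, the fit of the compared groups alone called 339 higher and 291 lower of 11973 genes. The causes were not tested. The median log2 fold change of all genes in control against wild type was -0.12 without a filter and -0.13 without the 3 libraries, against -0.06. Members with few reads, such as Hdac7, Kdm4a and Sirt5, are limited by depth.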
